A study of Mus musculus with 50 samples.

Results

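The comparison described here set mouse fibroblasts given the compound 4Ei-1 at 200 µM against the same cells without it, in polysome-associated RNA and in total RNA. Its members were chosen by sample title and are 12 of the 50 arrays of the study, from 6 of its 25 cultures. There were 3 cultures with 200 µM 4Ei-1, mifepristone and no 4Ei-4, and 3 drug-free cultures with mifepristone and neither compound. All 6 were of a derivative of NIH 3T3, an immortalised mouse embryonic fibroblast line, in which the steroid mifepristone switches on an inducible eIF4E, so both groups carried the induction. The drug was given for 4 h, and each culture gave 1 polysome array and 1 total array. Titles of the polysome samples call their fraction heavy, and lighter polysomes may have been left out of it. The labels give a processing batch for each array. The cultures with 4Ei-1 lay in batch 1 (replicate 1) and batch 2 (replicates 2 and 3), and the drug-free cultures in batches 1, 2 and 3 (replicates 1, 2 and 3). It is not stated whether the replicates came from separate cultures of cells. The p-values rest on a spread estimated over all 25 cultures, not over these 6 alone, and that spread may be technical.

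eIF4E is the protein that binds the cap at the 5′ end of mRNAs. Together with the scaffold eIF4G and the helicase eIF4A it forms the eIF4F complex, which brings the small ribosomal subunit to the mRNA. mRNAs with structured leaders, among them many that encode growth factors, cyclins and survival proteins, are known to depend strongly on eIF4E. 4Ei-1 is a prodrug of a cap analog that competes for the cap pocket of eIF4E, and an mRNA that carries many ribosomes sediments with heavy polysomes. Translational efficiency is here the log2 level of an mRNA on polysomes minus its log2 level in total RNA of the same culture. A positive difference between the groups means a higher value with 200 µM 4Ei-1.

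Mean probe intensity was 234 to 304 on the polysome arrays and 197 to 337 on the total arrays with 4Ei-1, against 200 to 392 and 183 to 297 without it. The share of probes detected, meaning a deposited detection p below 0.05, was 25.1% to 27.9% on polysome arrays and 25.5% to 30% on total arrays with 4Ei-1. Without it the shares were 25.4% to 34.9% and 26.2% to 37.2%, with the highest of each in the drug-free replicate 3, the culture of batch 3. Of 14 fibroblast marker genes on the array 11 were detected on all 12 arrays, with a summed total RNA intensity of 26500 to 32700 with 4Ei-1 and 27100 to 35600 without it. Of the 8 epithelial, 6 leukocyte, 6 endothelial, 5 adipocyte and 5 skeletal muscle markers none was detected on all 12. The most often detected of these were Cd14 on 11 arrays, Lep on 9, Krt14 on 7 and Csf1r on 6. Eif4e itself, as the array's mouse probe reports it, was detected on 2 of the 12 arrays. It differed by 0.05 ± 0.33 in efficiency, by -0.10 ± 0.26 in polysome RNA and by -0.15 ± 0.20 in total RNA (n = 3 each). Here and below the errors are SE from the fit over all 25 cultures. The limma adjusted p-values were 0.967, 0.925 and 0.834. Whether the probe also reads the mRNA of the inducible copy was not known from the labels.

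Few mRNAs passed the test after 4 h of 200 µM 4Ei-1, and most of those that did had weak signals. Of 12644 genes tested with limma over all 25 cultures with terms for group and batch, 51 (0.403%) passed an adjusted p below 0.05 in efficiency, 17 (0.134%) higher and 34 (0.269%) lower. On polysomes 2 genes (0.0158%) passed, 1 each way, and in total RNA 24 (0.19%), of which 11 were higher and 13 lower. At an unadjusted p below 0.05 there were 1696, 1615 and 1488 genes. With only the 6 cultures, or only batches 1 and 2, limma called no gene in any measure, with 544, 790 and 624, or 679, 822 and 812, at an unadjusted p below 0.05. The authors' deposited log2 values gave 12, 0 and 0 calls, and 5 of the 12 were among the 51. The rises in total RNA made up 0.087% of the genes tested and the falls 0.103%. The median gene differed by -0.03 in efficiency, by -0.01 in polysome RNA and by 0.00 in total RNA. All arrays were scaled to one distribution of values, so a loss of polysome RNA shared by all mRNAs would not be seen. The median half-width of the 95% interval of a difference was 0.667 for efficiency, 0.528 for polysome and 0.469 for total RNA. Of the 5106 genes detected on all 12 arrays, the efficiency interval lay within 1 log2 unit of 0 for 62.4%, the polysome interval for 77.4% and the total RNA interval for 90.9%. For those well-measured mRNAs a change of more than 2-fold in either direction was outside the interval.

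The plot of changes places each gene by both RNA fractions. Of the 17 genes that rose in efficiency, 16 had values of opposite sign on polysomes and in total RNA, and of the 34 that fell, 33 did. The 17 had a median efficiency difference of 1.54, a polysome difference of 0.62 and a total RNA difference of -0.85, and total RNA differed by more than polysome RNA in 11 of them. The 34 had medians of -1.56, -0.85 and 0.72, and polysome RNA differed by more in 20. None of the 51 was also called on polysomes, and 7 were also called in total RNA, each with the sign opposite to its efficiency change. All 51 had the same direction within batch 1 and within batch 2. They were chosen by a fit with a batch term to these same values, so this agreement follows largely from the choice. The 3 cultures with 4Ei-1 lay wholly above the drug-free ones in 11 of the 17 and wholly below in 25 of the 34, against 5.91% and 6.86% of all genes tested. This excess too follows largely from the choice of the genes by these values. On polysomes the groups lay wholly apart in 5.61% of genes with 4Ei-1 above and 6.03% with 4Ei-1 below, and in total RNA in 6.41% of genes, 3.53% above and 2.88% below.

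**Figure D1:**
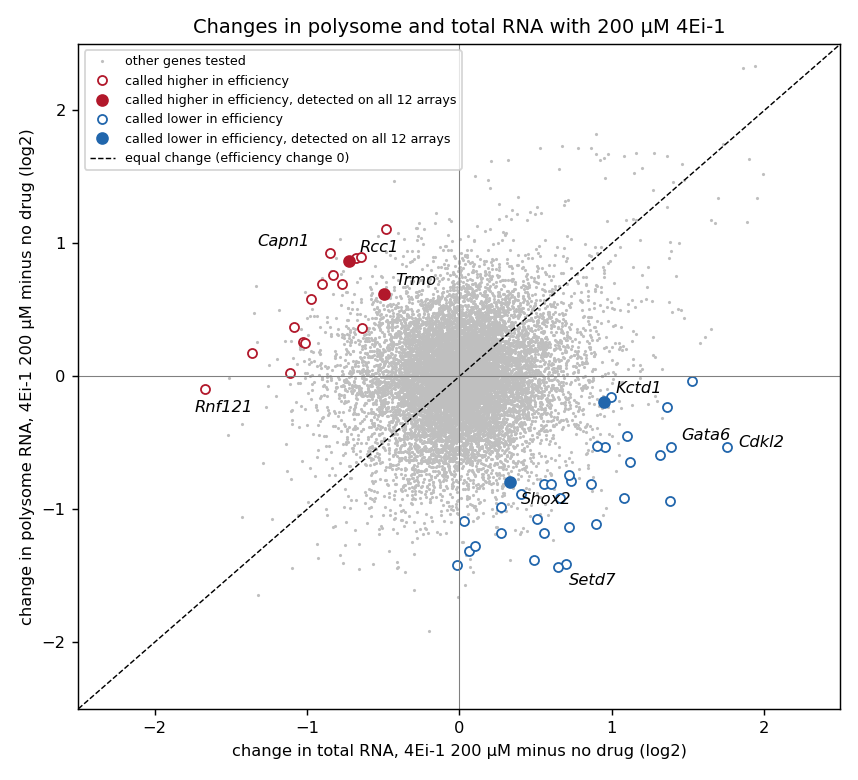
Each point is a gene, with the log2 difference in total RNA (200 µM 4Ei-1 minus no drug) on the horizontal axis and that in polysome RNA on the vertical axis; the dashed line marks equal differences, that is, no difference in efficiency. Genes called higher in efficiency (17, red) lie above the line and to the left, genes called lower (34, blue) lie below it and to the right, and filled symbols mark the 4 of them detected on all 12 arrays.

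Most of the 51 genes were near the detection limit. Those detected on all 12 arrays were 2 of the 17 and 2 of the 34, while 7 and 10 were detected on fewer than 6. Of the 34 genes that fell, the polysome arrays with 4Ei-1 detected 9, 15 and 9, and the drug-free polysome arrays 29, 31 and 31. In total RNA 27, 28 and 23 of them were detected with 4Ei-1, against 13, 6 and 30 without it. Detection of these mRNAs was thus lower with 4Ei-1 on every polysome array, and in total RNA it was lowest in the drug-free replicates 1 and 2. The genes were chosen for lower polysome relative to total values on these arrays, so this follows in part from the choice. Of the 17 that rose, 12, 9 and 8 were detected on polysomes with 4Ei-1 and 10, 4 and 10 without it, and in total RNA 9, 6 and 3 against 15, 13 and 12. Over all genes tested the polysome arrays detected 57.5%, 59.7% and 54.9% with 4Ei-1 and 63.8%, 56.1% and 69.8% without it, and the total arrays 62%, 59.6% and 54.6% against 60.6%, 55.4% and 71.6%. The part of array-wide detection in the calls was not tested.

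The 4 efficiency calls detected on every array reached that difference in different ways. Rcc1 (gene ID 100088) encodes the chromatin-bound factor that loads Ran with GTP for nuclear transport and spindle assembly. Its polysome level was 7.46, 6.51 and 7.03 with 4Ei-1, against 6.42, 6.10 and 6.06 without it (log2, replicates 1 to 3). Its total RNA level was 5.91, 6.26 and 6.17 with 4Ei-1 and 6.62, 6.89 and 6.04 without it. Every culture with 4Ei-1 was higher than every drug-free culture on polysomes, while in total RNA the groups overlapped through the low drug-free replicate 3. The polysome difference was 0.87 ± 0.24 (limma adjusted p = 0.130) and the total RNA difference -0.73 ± 0.17 (limma adjusted p = 0.0908), neither past the test, and Rcc1 rose only in their difference. Trmo (gene ID 74753), which methylates an adenosine of tRNAs, had efficiencies of 0.90, 1.19 and 0.82 with 4Ei-1, against -0.25, -0.17 and 0.13 without it. These groups lay well apart. On polysomes Trmo stood at 7.08, 7.32 and 7.13 with 4Ei-1 and at 6.34, 6.69 and 5.60 without it, again with no overlap. The lowest drug-free value, in replicate 3, was matched by a low total RNA value of 5.47 in the same culture.

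Kctd1 (gene ID 106931), a BTB-domain repressor of transcription, had efficiencies of -0.78, -0.44 and -0.68 with 4Ei-1, against 0.60, 0.52 and -0.14 without it. On polysomes Kctd1 stood at 6.56, 7.55 and 7.55 with 4Ei-1 and 7.24, 7.44 and 7.80 without it, so the groups overlapped there. Its total RNA level was 7.34, 7.99 and 8.23 with 4Ei-1, against 6.64, 6.92 and 7.94 without it. The fall in the efficiency of Kctd1 was thus carried by total RNA, which differed by 0.95 ± 0.20 (limma adjusted p = 0.0623) while polysome RNA differed by -0.19 ± 0.26. Shox2 (gene ID 20429), a homeobox factor of limb and heart pacemaker development, showed the other pattern. On polysomes Shox2 stood at 7.85, 6.76 and 6.14 with 4Ei-1, against 8.19, 7.56 and 8.61 without it, and its total RNA level was 7.30, 6.63 and 6.62 against 6.45, 6.63 and 7.56. Polysome values of Shox2 overlapped only between replicate 1 with 4Ei-1 and the drug-free replicate 2, and the polysome difference of -0.80 ± 0.28 (limma adjusted p = 0.245) was larger than the total RNA difference of 0.33 ± 0.21. With total RNA entered as a covariate in place of the subtraction, none of the 25 named genes called in efficiency passed. For the 4 detected on every array the limma adjusted p-values were then 0.198 (Rcc1), 0.139 (Trmo), 0.170 (Kctd1) and 0.0777 (Shox2).

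**Figure D2:**
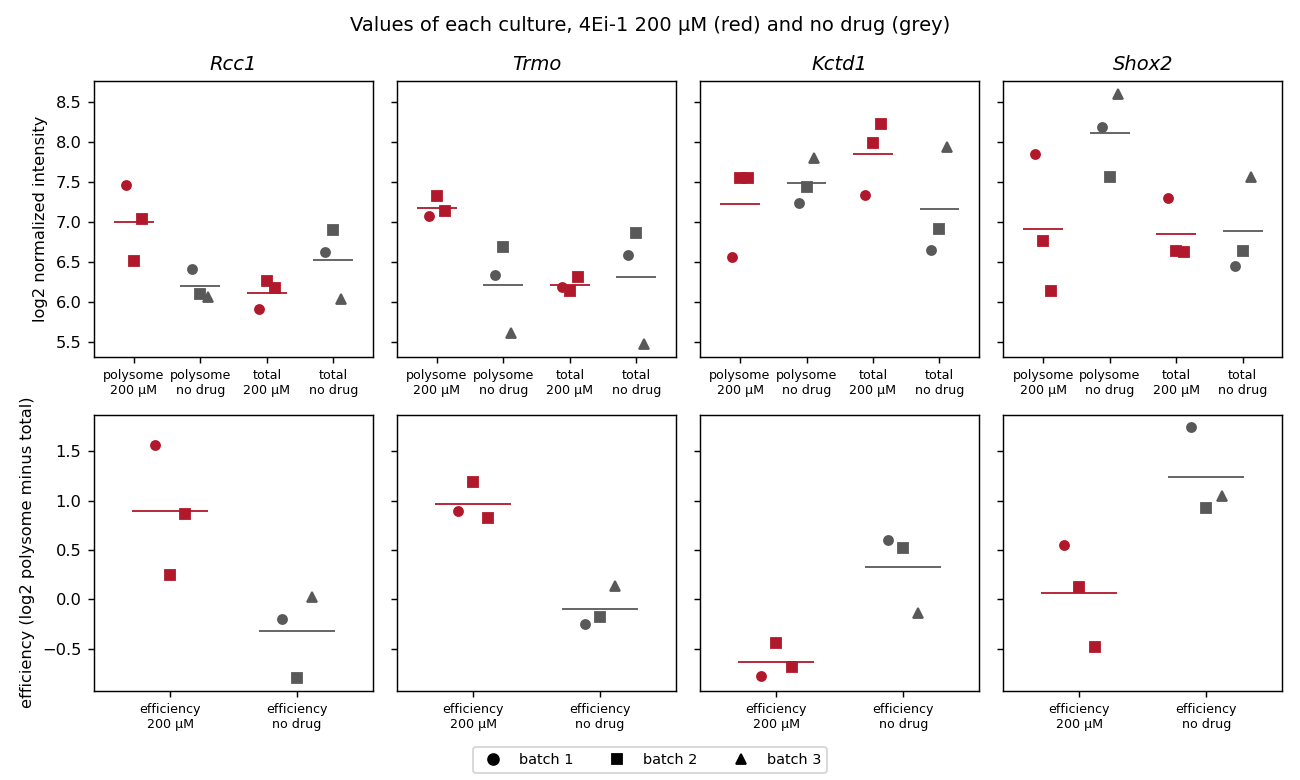
Log2 levels in polysome RNA and in total RNA and their difference, the efficiency, of each culture for named genes, with the 3 cultures with 200 µM 4Ei-1 (red) left of the 3 drug-free cultures (grey) and the symbol giving the processing batch. Polysome values of Rcc1 lie higher in all 3 cultures with 4Ei-1, while those of Kctd1 overlap and its total RNA values carry the difference.

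Among the other mRNAs that rose in efficiency and were detected on at least 6 of the 12 arrays, several encode enzymes and signalling adaptors. Capn1 (gene ID 12333), the catalytic subunit of the calcium-activated protease calpain, had efficiencies of 1.90, 1.64 and 2.09 with 4Ei-1, against 0.62, -0.76 and 0.83 without it. Apbb1ip (gene ID 54519), a Rap1 effector that brings talin to integrins, had 1.24, 1.04 and 1.14 against -0.52, -0.59 and -0.07. Calcoco1 (gene ID 67488), a coiled-coil protein of transcription and of autophagy of the endoplasmic reticulum, had 2.48, 2.85 and 2.97 against 1.69, 1.19 and 0.35. None of these 3 overlapped between the groups. Capn1 rose by 1.77 ± 0.35 (limma adjusted p = 0.0294) and Calcoco1 by 1.28 ± 0.24 (0.0266). For Calcoco1 the polysome difference was 0.26 ± 0.25 and the total RNA difference -1.02 ± 0.28, and for Capn1 these were 0.92 ± 0.27 and -0.85 ± 0.26. Capn1 was detected on 1 of 3 total arrays with 4Ei-1 and 3 of 3 without it, so the size of its rise is uncertain. Apbb1ip passed the test as a rise (limma adjusted p = 0.0266), but it was not detected on any total array with 4Ei-1. Without 4Ei-1 it was detected on 2 of 3 total arrays, and the limit for its lower level with 4Ei-1 was 1.04-fold. Its efficiency with 4Ei-1 has only a bound. Such a limit starts from the mean over all 3 arrays of the group with signal, detected or not. It sets this against the lowest signal detected on each array of the other group, or the gene's own value if higher. Where the group with signal did not detect the gene on every array, as for Apbb1ip, the limit is not strict.

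Pfkfb4 (gene ID 270198), which makes and breaks down the glycolytic activator fructose 2,6-bisphosphate, had polysome levels of 6.77, 6.38 and 6.95 with 4Ei-1, against 6.11, 4.69 and 5.98 without it. Its polysome difference of 1.11 ± 0.33 was the larger part of its rise of 1.58 ± 0.32 in efficiency (limma adjusted p = 0.0309). The drug-free replicate 2 was the lowest culture for Pfkfb4 on polysomes, and also for Dffa, the inhibitor of the caspase-activated DNase, at 4.38. Dffa rose by 1.59 ± 0.35 and Zbtb3, a zinc finger protein with a BTB domain, by 1.59 ± 0.33. The efficiencies of Dffa overlapped between the groups. With the replicate number as a block in place of batch it differed by 1.03 (limma adjusted p = 0.320). Over 17 alternatives the Dffa call was lost in 14 and the Zbtb3 call in 12. Miip, an inhibitor of cell migration and invasion, rose by 1.00 ± 0.21. Rnf121 (gene ID 75212), a membrane-bound ubiquitin ligase, was the one among these whose total RNA also passed the test, with total RNA levels of 5.43, 5.40 and 4.67 with 4Ei-1 against 6.64, 7.23 and 6.05 without it. Those groups did not overlap, and the total RNA difference was -1.67 ± 0.26 (limma adjusted p = 0.0128). On polysomes Rnf121 was detected on none of the 3 arrays with 4Ei-1 and 2 of the 3 drug-free ones. Its efficiency with 4Ei-1 thus has only an upper bound, which does not by itself show a rise. With total RNA as a covariate the efficiency difference of Rnf121 was 0.14 (limma adjusted p = 0.950).

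The mRNAs that fell in efficiency included those of a transcription factor and of a growth factor receptor. Gata6 (gene ID 14465), a zinc finger transcription factor of heart and endoderm, had efficiencies of -0.89, -0.47 and -0.54 with 4Ei-1, against 0.83, 1.95 and 0.06 without it. Its total RNA level was 6.31, 6.65 and 6.55 with 4Ei-1, against 5.17, 4.74 and 6.06 without it, and its polysome level was 5.41, 6.18 and 6.01 against 5.99, 6.69 and 6.12. Gata6 did not overlap between the groups in efficiency or in total RNA, and it overlapped on polysomes. It fell by 1.92 ± 0.29 in efficiency (limma adjusted p = 0.0266), with -0.53 ± 0.27 on polysomes and 1.39 ± 0.30 in total RNA (limma adjusted p = 0.0634). Bmpr1a (gene ID 12166), a type I receptor for bone morphogenetic proteins, had efficiencies of -1.52, -1.35 and -2.52 with 4Ei-1, against 0.31, -0.05 and 0.10 without it. On polysomes Bmpr1a stood at 4.54, 6.29 and 4.61 with 4Ei-1 and 5.82, 7.16 and 8.18 without it, overlapping in 1 culture each. Bmpr1a fell by 1.87 ± 0.37 (limma adjusted p = 0.0294), and here polysome RNA, at -1.38 ± 0.42, made up most of the difference. Bmpr1a was detected on 1 of 3 polysome arrays with 4Ei-1 and 3 of 3 without it, so the size of the polysome fall is uncertain.

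For several of the mRNAs that fell, polysome signal was lost from detection. Setd7 (gene ID 73251), a lysine methyltransferase, was detected on none of the 3 polysome arrays with 4Ei-1 and on all 3 drug-free ones. The polysome level of Setd7 was 4.43, 4.90 and 4.50 with 4Ei-1, against 6.32, 6.03 and 8.38 without it, at least 2.81-fold lower. The same was seen for Arpc5l (gene ID 74192), a subunit of the Arp2/3 complex that nucleates branched actin, at 4.71, 4.80 and 4.78 with 4Ei-1 against 6.37, 6.34 and 7.13 without it, at least 2.29-fold lower. Both mRNAs were detected on all 3 total arrays with 4Ei-1. Both fell in efficiency (limma adjusted p = 0.0266 for Setd7 and 0.0294 for Arpc5l), but with polysome signal below detection the size of those falls has only a bound. Their polysome differences alone had limma adjusted p-values of 0.0982 and 0.0727. Atp8b2, a phospholipid flippase, was likewise detected on 0 of 3 polysome arrays with 4Ei-1 and 3 of 3 without it, at least 1.11-fold lower with 4Ei-1. Nkapd1 was detected on 0 of 3 with 4Ei-1 and 2 of 3 without it, and its limit of 1.22-fold lower with 4Ei-1 is not strict.

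Cdkl2 (gene ID 53886), a kinase related to the cyclin-dependent kinases, had values of opposite sign in the fractions. Its total RNA level was 6.29, 5.75 and 6.82 with 4Ei-1, against 4.54, 4.54 and 5.22 without it, with detection on 3 of 3 arrays with 4Ei-1 and 1 of 3 without it. On polysomes it stood at 4.57, 4.64 and 4.57 with 4Ei-1, where it was detected on none of the 3 arrays, against 5.56, 5.03 and 5.78 without it. The groups did not overlap in either fraction. The limit for the lower polysome RNA was 1.03-fold, and it is not strict, since 2 of 3 drug-free polysome arrays detected Cdkl2. Total RNA of Cdkl2 rose by 1.76 ± 0.26 (limma adjusted p = 0.0094). Its efficiency also passed the test as a fall (limma adjusted p = 0.0266), of a size that the undetected polysome signal leaves unmeasured. With total RNA as a covariate in place of the subtraction, the efficiency of Cdkl2 was 0.19 higher with 4Ei-1 (limma adjusted p = 0.931), so neither that call nor its direction was kept. Arih1, a ubiquitin ligase that works with cullin-RING ligases, also rose in total RNA, by 1.36 ± 0.22 (limma adjusted p = 0.0156), and fell in efficiency, by 1.60 ± 0.33 (0.0319). In total RNA Arih1 was detected on 3 of 3 arrays with 4Ei-1 and 1 of 3 without it. Of the remaining named falls, Srp72, a subunit of the signal recognition particle, fell by 1.76 ± 0.33, the zinc finger gene Zfp658 by 1.99 ± 0.37, the small membrane protein gene Smim13 by 1.67 ± 0.34 and Ott by 2.32 ± 0.43.

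The calls leaned on single cultures. Of the 38 calls of named genes in efficiency, polysome or total RNA, 26, 27 and 17 were kept without replicates 1, 2 and 3 with 4Ei-1. Without the drug-free replicates 1, 2 and 3 the numbers kept were 10, 3 and 38. The drug-free replicate 2 was thus the culture that most of these calls needed. It was the only drug-free culture in batch 2, which held replicates 2 and 3 with 4Ei-1. The drug-free replicate 3 lay in batch 3, which held no culture with 200 µM. With a batch term in the fit, these omissions therefore do not weigh alike. Of the 38, only the rises of Cdkl2 and Arih1 in total RNA were kept in all 6 omissions, with highest limma adjusted p-values of 0.0326 and 0.0454. Over all 16 alternatives, though, the Cdkl2 call was lost in 5 and the Arih1 call in 7. Both were lost with the authors' log2 values, with no batch term and with only the 6 cultures. Among the omissions, the efficiency changes of Rcc1 and Gata6 and the fall of Rnf121 in total RNA were lost only without the drug-free replicate 2, at limma adjusted p-values of 0.0719, 0.128 and 0.105. The number of genes called in efficiency was 9 without that culture.

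On polysomes the fall was that of Apc (gene ID 11789), the scaffold of the complex that marks β-catenin for destruction in Wnt signalling. Its polysome level was 4.40, 5.36 and 4.64 with 4Ei-1, against 5.66, 7.23 and 6.17 without it, with detection on 1 of 3 arrays with 4Ei-1 and 3 of 3 without it. All 3 cultures with 4Ei-1 were lower than all drug-free ones. Apc fell by 1.66 ± 0.27 (limma adjusted p = 0.0453), with -1.26 in batch 1 and -2.23 in batch 2, and total RNA differed by -0.01 ± 0.29. Same-numbered cultures correlated in polysome RNA, and with the replicate number as a block Apc was at -1.55 with a limma adjusted p of 0.0808. It also lost its call without the drug-free replicate 1 or 2. The rise was that of Cdh24, a cadherin, which falls outside the rule for named genes and was chosen after its values were seen. Its polysome level was 5.31, 5.63 and 5.39 with 4Ei-1 and 4.45, 4.44 and 4.42 without it. Detection was on 1 of 3 arrays with 4Ei-1 and none without it, so its limit of 1.22-fold higher is not strict.

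In total RNA, 24 genes were called, and for each of them total RNA differed by more than polysome RNA. Cholesterol synthesis enzymes went both ways. Ebp (gene ID 13595), the sterol isomerase of that pathway and the 1 called gene detected on all 12 arrays, was at 6.44, 6.23 and 6.03 with 4Ei-1, against 7.11, 7.53 and 6.92 without it. The groups did not overlap, and Ebp fell by 0.98 ± 0.19 (limma adjusted p = 0.0465). On polysomes Ebp was at 6.80, 6.19 and 6.25 with 4Ei-1 and 6.02, 6.68 and 6.16 without it, a difference of 0.00 ± 0.32. Lss (gene ID 16987), which closes the sterol rings, was at 5.91, 6.71 and 6.04 with 4Ei-1, against 4.85, 4.68 and 5.33 without it, and rose by 1.45 ± 0.28 (limma adjusted p = 0.0465). The polysome level of Lss was 6.88, 7.75 and 7.30 with 4Ei-1 and 6.20, 7.03 and 5.84 without it, 0.50 ± 0.28 higher and not past the test. Lss was detected on 1 of 3 drug-free total arrays.

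Other rises in total RNA were those of Ddah2, a dimethylarginine hydrolase family member (1.58 ± 0.32), Limk2, a kinase that inactivates the actin-severing protein cofilin (1.52 ± 0.30), and Ulk2, a kinase that starts autophagy (1.27 ± 0.25). Limk2 also fell in efficiency, by 1.56 ± 0.32 (limma adjusted p = 0.0309). The polysome level of Limk2 was 6.83, 5.36 and 6.23 with 4Ei-1, against 6.52, 6.01 and 5.99 without it, and so overlapped. Falls were those of Tardbp, which encodes the RNA-binding protein TDP-43 (-1.33 ± 0.24), Abcd2, a peroxisomal fatty acid transporter (-1.23 ± 0.25), the F-box gene Fbxo41 (-1.04 ± 0.21) and the kinesin gene Kifc2 (-0.87 ± 0.16). The groups overlapped for Ddah2, at 6.74, 6.08 and 6.94 with 4Ei-1 against 5.64, 4.61 and 7.63 without it, and for Kifc2, at 4.69, 6.07 and 6.43 with 4Ei-1 against 5.88, 7.02 and 5.44 without it. With the replicate block Ddah2 was at 0.63 and Kifc2 at -0.38, with limma adjusted p-values of 0.833 and 0.845. Tardbp is the best known of these. Its total RNA level was 5.46, 4.92 and 5.40 with 4Ei-1, against 6.26, 6.74 and 5.50 without it (limma adjusted p = 0.0236), with detection on 1 of 3 arrays with 4Ei-1 and 3 of 3 without it. Abcd2 was lower in both fractions, and on polysomes it was detected on 0 of 3 arrays with 4Ei-1 and 3 of 3 without it and was at least 1.35-fold lower with 4Ei-1.

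Groups of genes with a shared role were described by counts and medians, with no test of a list. Genes of mitosis, from spindle kinases to the ubiquitin ligase that ends mitosis, were mostly at higher levels with 4Ei-1 in both fractions. Of 45 tested, 41 were above 0 on polysomes and 40 in total RNA, with medians of 0.64 and 0.53, against -0.01 and 0.00 over all genes tested. Other processing choices gave medians of 0.20 to 1.14 on polysomes, the lowest from the authors' deposited log2 values and the highest among genes detected on all 12 arrays, and 0.13 to 1.05 in total RNA. No member was called in any measure, the smallest limma adjusted p on polysomes being 0.108. Set against the mean of the drug-free cultures, the median member on polysomes was at 1.07, 0.88 and 0.51 in the cultures with 4Ei-1 and at 0.19, -0.22 and 0.06 in the drug-free ones. The culture with 4Ei-1 in batch 1 was highest, and no culture overlapped. Cdc20, the activator of that ligase, was at 10.93, 10.20 and 9.93 on polysomes with 4Ei-1, against 9.14, 8.04 and 8.54 without it. Cdk1, the kinase that drives entry into mitosis, was at 9.57, 9.21 and 8.65 with 4Ei-1, against 7.78, 7.17 and 7.57 without it. Both lay apart without overlap, yet with differences of 1.65 ± 0.55 and 1.49 ± 0.52 their limma adjusted p-values were 0.222 and 0.243. The chromosomal passenger gene Cdca8 (1.53 ± 0.53) and the cell division gene Cdca3 (1.34 ± 0.58) were in the same position. In efficiency the mitosis list had a median of 0.05, since both fractions differed alike. In RNA of whole cultures, more cells in mitosis and more of these mRNAs per cell cannot be told apart.

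DNA replication and nucleotide synthesis genes had medians of 0.42 on polysomes and 0.34 in total RNA over 49 tested, with 36 and 44 above 0, none called, and the polysome median was 0.19 to 0.54 under other processing choices. The median member on polysomes was at 1.00, 0.53 and 0.32 in the cultures with 4Ei-1, against 0.11, -0.02 and -0.09 without it. Some members differed more on polysomes than in total RNA. Mcm7, a subunit of the replicative helicase, was at 7.82, 7.44 and 7.10 on polysomes with 4Ei-1, against 6.36, 5.87 and 5.44 without it. The groups did not overlap, the difference was 1.30 ± 0.32 (limma adjusted p = 0.0966), and in total RNA it was 0.26 ± 0.26. Mcm5, of the same helicase, was at 9.57, 9.03 and 9.39 with 4Ei-1, against 8.09, 6.85 and 7.46 without it, 1.73 ± 0.47 higher (limma adjusted p = 0.128), and in total RNA 0.68 ± 0.47. Pold2, a subunit of DNA polymerase δ, differed by 0.72 ± 0.26 on polysomes and 0.34 ± 0.20 in total RNA, and Tyms, thymidylate synthase, by 0.69 ± 0.27 and 0.83 ± 0.21. None of these 4 passed.

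**Figure D3:**
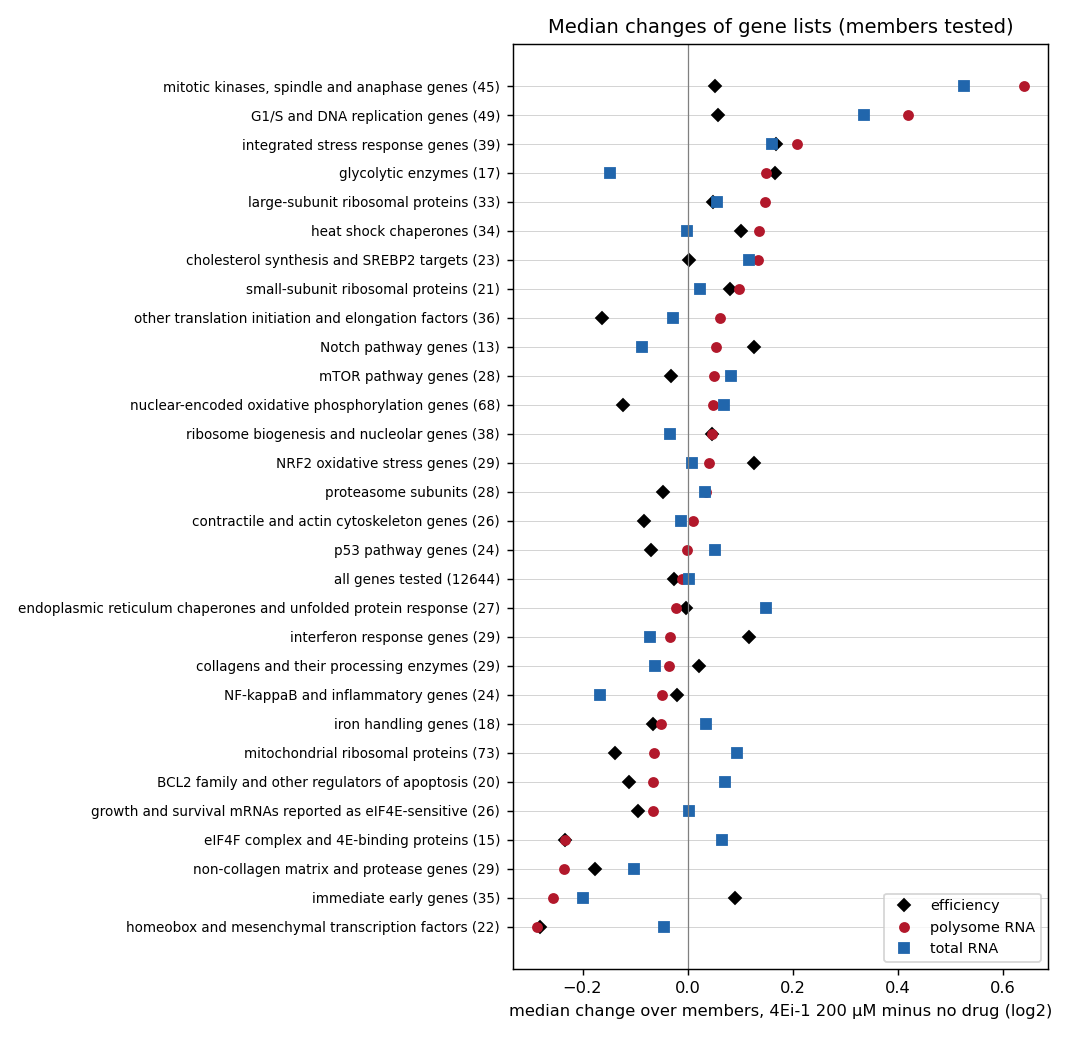
Median log2 difference (200 µM 4Ei-1 minus no drug) of each gene list in efficiency (black diamonds), polysome RNA (red circles) and total RNA (blue squares), with the number of members tested in parentheses and lists ordered by the polysome median. Mitosis and DNA replication genes stand at the top with polysome medians of 0.64 and 0.42, and homeobox and mesenchymal transcription factors stand at the bottom with -0.29.

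Homeobox and other transcription factors of mesenchymal cells were mostly lower in efficiency with 4Ei-1. The list was drawn up with the fall of Shox2 known. Of 22 tested, 5 were above 0 and 1, Shox2 itself, was called lower, as were 0.269% of all genes, with a median of -0.28 against -0.03 over all genes tested. The median member was at -0.57, -0.31 and -0.34 in the cultures with 4Ei-1 and at 0.08, -0.11 and 0.04 in the drug-free ones. The groups did not overlap, and the median lay between -0.36 and -0.17 over all 18 alternatives, the omission of each culture included. Total RNA of the list had a median of -0.05. Zeb1, a zinc finger repressor of epithelial genes, was at 9.07, 9.49 and 9.26 on polysomes with 4Ei-1, against 10.07, 10.21 and 9.78 without it. Zeb1 did not overlap between the groups, and it differed by -0.82 ± 0.20 on polysomes (limma adjusted p = 0.0982) and by -0.13 ± 0.17 in total RNA. Twist1 and Sox9, regulators of mesoderm and of cartilage, differed by -0.52 ± 0.29 and -0.41 ± 0.22 on polysomes and by -0.05 ± 0.22 and -0.10 ± 0.17 in total RNA, none past the test.

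The classic eIF4E-sensitive mRNAs of growth, angiogenesis and survival had a median of -0.09 in efficiency over 26 tested, with 12 above 0. The median over all genes was -0.03. None of the 26 was called, where 0.403% of all genes were. Vegfa, the main angiogenic growth factor, had efficiencies of -1.07, -1.19 and -0.75 with 4Ei-1, against -0.28, 0.34 and -0.18 without it. These groups did not overlap, and Vegfa differed by -1.03 ± 0.32 (limma adjusted p = 0.174). The matrix protease gene Mmp9 differed by 0.61 ± 0.42 in efficiency, Mdm2, the ligase that degrades p53, by -0.31 ± 0.29, and the chromatin kinase gene Tlk1 by -0.50 ± 0.29. The list as a whole was near the median of all genes, and its members went both ways.

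Genes of the eIF4F complex and its binding proteins, 15 tested, had a median of -0.23 in efficiency, with 5 above 0 and none called. This value was not alike in the batches, at -0.62 within batch 1 and -0.03 within batch 2. Eif4enif1, which carries eIF4E into the nucleus, had efficiencies of -1.08, 0.32 and -0.28 with 4Ei-1, against 0.79, 0.28 and 0.27 without it. The groups overlapped, and the batch 1 culture with 4Ei-1 was the lowest. Eif4a2, a helicase of the complex, differed by -0.38 ± 0.19 on polysomes, and the eIF4E kinases Mknk2 and Mknk1 by 0.28 ± 0.22 and -0.29 ± 0.23. Without replicate 1 with 4Ei-1 the polysome median of the list was 0.01, and without the drug-free replicate 1 it was 0.05. Of the eIF3 subunits, Eif3a differed by -0.63 ± 0.23 on polysomes, and Eif3k by 0.80 ± 0.26, which turned to -0.10 with no batch term and with the replicate block. Other initiation and elongation factors (36 tested) had a median of -0.16 in efficiency, and ribosomal proteins of the large (33) and small (21) subunit, whose mRNAs carry the terminal pyrimidine tract that mTOR regulates, 0.05 and 0.08. Those of the ribosomal proteins also differed in sign between the batches, at -0.42 and -0.19 within batch 1 and 0.25 and 0.17 within batch 2. None of these genes was called.

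The genes of the integrated stress response, which follows phosphorylation of eIF2α, had a median of 0.21 on polysomes over 39 tested, with 30 above 0 and none called, and 0.17 in efficiency. Asns, asparagine synthetase, was at 10.79, 10.49 and 10.69 on polysomes with 4Ei-1, against 10.19, 9.68 and 10.91 without it. Its groups overlapped through the drug-free replicate 3, and it differed by 0.72 ± 0.19 (limma adjusted p = 0.128). Aars, the alanyl-tRNA synthetase, differed by 0.84 ± 0.27, the transcription factor gene Atf5, whose leader holds upstream reading frames, by 0.87 ± 0.29, and Cebpg, of the CCAAT-binding family, by -0.65 ± 0.22. Immediate early genes (35 tested) had a median of -0.26 on polysomes, but it was -0.45 within batch 1 and 0.12 within batch 2. Dusp6, a phosphatase of ERK, illustrates this, with -1.22 in batch 1 and 0.17 in batch 2, and Gadd45b, a stress-inducible gene, had -0.24 and 1.95. Jun and Klf4, transcription factors of that response, differed by -0.57 ± 0.24 and -0.53 ± 0.23.

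Genes of secreted proteins had opposite directions in the batches. The collagens and their processing enzymes, 29 tested, had a median of 0.02 in efficiency, which was 1.17 within batch 1 and -0.83 within batch 2. The median member stood at 1.27, 0.19 and -0.07 in the cultures with 4Ei-1 and at -0.14, 0.86 and -0.70 in the drug-free ones, so the groups overlapped widely. Leaving out single cultures moved the median between -0.86 and 0.39. The 1 call, a fall in Col15a1, a collagen of basement membranes, was detected on 2 of 12 arrays and on no polysome array with 4Ei-1, so its size is unmeasured, and it was chosen after its values were seen. Other matrix genes (29 tested) had 0.65 within batch 1 and -0.69 within batch 2, and genes of the unfolded protein response of the endoplasmic reticulum (27 tested) had 0.85 and -0.47. Lox, which crosslinks collagen, was lower in both batches on polysomes, at 10.43, 10.92 and 10.88 with 4Ei-1, against 11.03, 12.59 and 11.18 without it. It differed by -1.17 ± 0.26 with no overlap and a limma adjusted p of 0.0727. The collagen chaperone gene Serpinh1 differed by 0.53 ± 0.29, and, of the endoplasmic reticulum genes, Herpud1 by 0.53 ± 0.26 and Ostc by -0.46 ± 0.27.

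**Figure D4:**
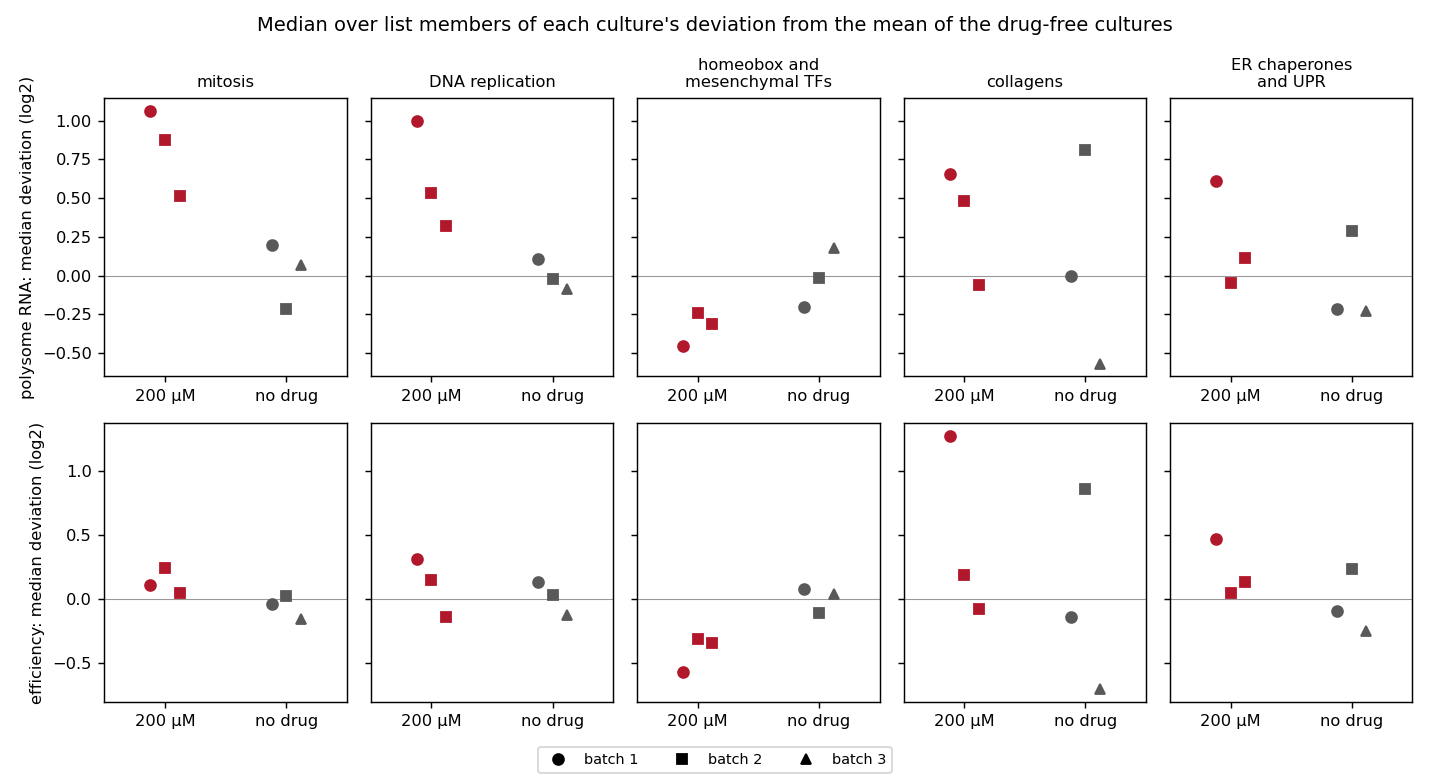
Median over the members of a gene list of each culture's deviation (log2) from the mean of the drug-free cultures, in polysome RNA and in efficiency, with 200 µM 4Ei-1 left of no drug and symbols for the processing batch. Mitosis genes are higher on polysomes in all 3 cultures with 4Ei-1, mesenchymal transcription factors are lower in efficiency in all 3, and collagen genes overlap, with the batch 1 culture with 4Ei-1 at 1.27 in efficiency.

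Metabolic genes showed single mRNAs with sizeable differences. Fdps, which makes farnesyl diphosphate for sterols and protein prenylation, was at 11.54, 13.06 and 12.33 on polysomes with 4Ei-1, against 10.05, 11.47 and 9.88 without it. The lowest value with 4Ei-1 lay just above the highest drug-free one, and the difference of 1.32 ± 0.35 had a limma adjusted p of 0.123. The 23 cholesterol genes had a median of 0.13 on polysomes and 0.12 in total RNA, with Lss and Ebp as the 2 calls, and Npc2, a lysosomal sterol carrier, differed by 0.56 ± 0.22 on polysomes, which turned to -0.031 with no batch term and with the replicate block. Steap2, a metalloreductase of iron and copper uptake, was at 8.11, 8.98 and 9.28 on polysomes with 4Ei-1, against 8.91, 10.15 and 9.14 without it. These values overlapped across batches, while within batches 1 and 2 the differences were -0.80 and -1.02. At -0.90 ± 0.18 Steap2 had a limma adjusted p of 0.0507, and it passed with no background correction, with the mean of a gene's probes and with no detection filter. Alas1, the first enzyme of heme synthesis, differed by 0.78 ± 0.28. Gsta4, a glutathione transferase under NRF2, differed by 1.03 ± 0.26 (limma adjusted p = 0.0982) and Mafg, a partner of NRF2, by -0.67 ± 0.23. Glycolytic enzymes were above 0 in efficiency in 14 of 17, with a median of 0.17 and none called, and Pfkl and Aldoa of that list differed by 0.72 ± 0.26 and 0.43 ± 0.26.

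Regulators of growth and of the ribosome were near the median of all genes. Genes of the mTOR pathway (28 tested) had medians of -0.03 in efficiency and 0.05 on polysomes. Nprl2, of the complex that restrains mTORC1 when amino acids are short, had efficiencies of 1.20, 1.77 and 2.22 with 4Ei-1, against 0.54, -0.04 and 0.19 without it. The groups lay apart, and Nprl2 differed by 1.39 ± 0.35 (limma adjusted p = 0.0869). Rragc, a GTPase that recruits mTORC1 to lysosomes, differed by -0.65 ± 0.25 on polysomes. Ribosome biogenesis genes (38 tested) had a median of 0.05 in both efficiency and polysome RNA, with 0.70 ± 0.18 for Polr1c, a subunit of RNA polymerases I and III, and -0.54 ± 0.18 for the nucleolar chaperone gene Npm1 on polysomes. Interferon response genes (29 tested) had a polysome median of -0.03, with 0.64 ± 0.22 for Ifi35 and 0.84 ± 0.31 for Isg15. Genes of oxidative phosphorylation (68) and mitochondrial ribosomal proteins (73) had medians of -0.12 and -0.14 in efficiency, with -0.62 and -0.41 within batch 1 against 0.14 and 0.10 within batch 2. No gene of these lists was called. The same held for regulators of apoptosis, the p53 pathway, heat shock chaperones, the Notch pathway, actin genes, NF-κB genes and proteasome subunits. Their efficiency medians lay at -0.11, -0.07, 0.10, 0.13, -0.08, -0.02 and -0.05, in that order, and their polysome medians at -0.07, 0.00, 0.14, 0.05, 0.01, -0.05 and 0.03.

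Lower concentrations share the drug-free cultures with 200 µM, so the values are given side by side. The 17 and 34 genes below were chosen for their difference from those cultures at 200 µM. Smaller medians of the same sign at the other concentrations thus follow in part from the choice and are not a test of dose. The 17 genes that rose in efficiency at 200 µM had efficiency medians of 0.18, 0.76, 0.89 and 1.54 as the concentration went through 10, 50, 100 and 200 µM. The 34 that fell had medians of -0.25, -0.92, -1.15 and -1.56. Rcc1 was at 0.13, 1.33, 0.89 and 1.59 over these concentrations and Trmo at -0.02, 0.89, 0.88 and 1.12. Kctd1 was at 0.08, -0.80, -1.19 and -1.14, and Gata6 at -0.45, -1.17, -1.14 and -1.92. Mitosis genes on polysomes had medians of 0.12, 0.37, 0.36 and 0.64. The cultures with 10 µM all lay in batch 3, which held no culture with 200 µM.

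A direct test of 200 µM against 50 µM used the 3 cultures of each, in the same batches. It called 30 efficiency differences (0.237%), 31 polysome differences (0.245%) and 5 total RNA differences (0.0395%), the last with 0.0237% higher and 0.0158% lower. Of the 51 genes called against no drug, 7 were also called against 50 µM. Calcoco1 was 1.44 ± 0.23 higher (limma adjusted p = 0.0134) at 200 µM than at 50 µM. Apbb1ip passed as higher (limma adjusted p = 0.0134) and Cdkl2 as lower (0.0154), with only a bound for their size at 200 µM. These 3 were at -0.14, -0.16 and -0.01 at 50 µM against no drug. The other 4, Ino80, Nkd1, Rasa2 and Uri1, fell outside the rule for named genes and were chosen after their values were seen. Ino80, the ATPase of a chromatin remodeller, differed between 200 and 50 µM by -1.75 ± 0.23 (limma adjusted p = 0.0035), and the prefoldin-like gene Uri1 by -1.17 ± 0.22. Rasa2, which switches off Ras, and the Wnt inhibitor gene Nkd1 were detected on none of the 3 polysome arrays with 200 µM, so their lower values have only a bound.

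**Figure D5:**
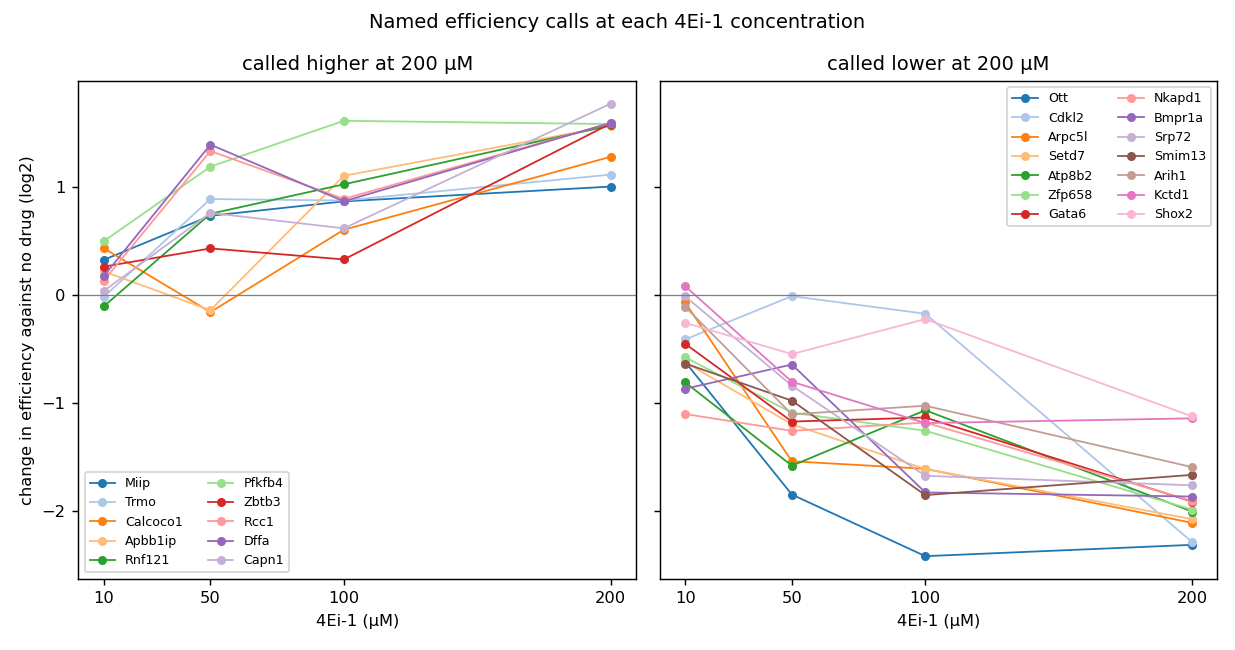
Efficiency differences against no drug (log2) of the named genes called at 200 µM, over 4 concentrations of 4Ei-1 (10 to 200 µM), with 10 genes called higher and 14 called lower in panels of their own; Limk2, named for its total RNA, is not drawn. At 50 µM Rcc1 stands at 1.33 and Gata6 at -1.17, while Cdkl2, Apbb1ip and Calcoco1 stand near 0 there, and values at 200 µM of genes with an undetected fraction are bounds.

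4Ei-4 is an analog of 4Ei-1 that was tested at the same concentration of 200 µM and for the same 4 h. Its 3 cultures all lay in batch 4, so the 2 compounds were compared with batch as a random block, and compound and batch cannot be told apart. In this single pair of compounds no gene was called in efficiency (0%) or polysome RNA (0%) and 1 in total RNA (0.00791%), by limma, with 732, 793 and 574 genes at an unadjusted p below 0.05. These counts depended on how batch was treated, with 365 polysome and 76 total RNA calls with no batch term, 435 and 118 with the replicate block, and 0 in efficiency in both. The median half-width of the 95% interval was 0.765 for efficiency, 0.842 for polysome and 0.71 for total RNA, wider than against no drug, and the tests do not show that the compounds act alike. The 1 call was Rpl7a, a protein of the large ribosomal subunit, chosen after its values were seen, at 1.60 ± 0.23 (limma adjusted p = 0.00777). Against no drug Rpl7a was at 0.08 with 4Ei-1 and -1.58 with 4Ei-4 in total RNA. The 17 genes that rose with 4Ei-1 had a median of 0.62 with 4Ei-4 against the same drug-free cultures, and the 34 that fell had -0.72. They were chosen for their difference from those cultures, so the shared sign follows in part from the choice. Rcc1 was at 1.07 with 4Ei-4, Trmo at 0.29, Kctd1 at -0.49, Shox2 at -0.46 and Gata6 at -0.87. Mitosis genes on polysomes had a median of -0.01 with 4Ei-4, and DNA replication genes 0.12, against 0.64 and 0.42 with 4Ei-1. Other lists had like medians with both compounds. In efficiency the homeobox and mesenchymal transcription factors had -0.22 with 4Ei-4 and -0.28 with 4Ei-1. The eIF4F complex and its binding proteins had -0.22 and -0.23.

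The leader of an mRNA begins at the transcription start, and its first bases were described by their GC content. Of the 17 genes that rose in efficiency 16 matched a promoter sequence of RefSeq (mouse build GRCm38.p6), of the 34 that fell 28, and of the 12644 tested 10224. The 50 bases after the start had a median GC content of 64% for the genes that rose, 67.5% for those that fell and 64% over all tested. The 250 bases before the start had 55.8%, 60.4% and 58.8%. Across the 10224 genes, which are not independent, GC content after the start and the efficiency difference had a Pearson correlation of -0.062 and a Spearman correlation of -0.061, given as a description. The window ignores introns and alternative starts, and lengths and folding of leaders were not analysed here.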

How the data were processed

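The authors deposited a table of linear probe intensity with a detection p-value per array, per the file headers, and a table of log2 values, for which no source used here gives the normalization. For the 45281 probes of all 50 arrays, background was removed by normexp in limma 3.58.1 (R 4.3.3, offset 16, using detection p-values), and log2 values were quantile-normalized. Each of 19057 genes was read by its brightest probe. A test was run for the 12644 genes with a detection p under 0.05 on 3 or more arrays. Of the probes 34885 had 1 symbol, 18 several, and 10378 were not listed. Efficiency, polysome RNA and total RNA were fitted over 25 cultures with terms for group and batch, and with batch as a random block (statmod 1.5.0) for 4Ei-4. Adjusted p-values are Benjamini-Hochberg values over all genes tested, and errors are SE of these fits. The fit was tested on simulated data with known changes.

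Members, lists and named genes were chosen with earlier results of these data known. Named were Eif4e, called genes detected on all 12 arrays, and, among those detected on 6 or more, the 12 greatest rises and falls in efficiency and the 6 greatest in each other measure. Also named were up to 4 list members with the smallest polysome p. Not every listed member that met the last criterion is described. The number of arrays limits precision. Same-numbered cultures correlated by 0.448, 0.302 and 0.221 in polysome RNA, which counts as paired, but not throughout in efficiency (0.139, -0.038 and 0.307) or total RNA (0.232, 0.121 and -0.235). Alternatives covered the authors' log2 values, background, scaling, probes, detection filter, batch, replicate block, covariate and omissions.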

Additional observations from a re-analysis of the deposited data

How the results depend on the processing

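In the order efficiency, polysome RNA and total RNA, 51, 2 and 24 genes were called against no drug. The counts were 12, 0 and 0 with the authors' deposited log2 values, 14, 7 and 3 with no background correction, 36, 9 and 19 with the mean of a gene's probes, 1, 0 and 0 among genes detected on all 12 arrays, and 65, 27 and 17 with no detection filter. They were 20, 9 and 2 with no batch term, 28, 18 and 4 with batch as a random block, 11, 2 and 5 with the replicate block, and 0 in each with only the 6 cultures (544, 790 and 624 at an unadjusted p below 0.05, limma) or only batches 1 and 2 (679, 822 and 812). Normalizing the fractions separately gave 46, 2 and 24, and total RNA as a covariate 23 in efficiency, 8 of them among the 51. Leaving out single replicates gave 9 to 122, 0 to 61 and 34 to 147. Of the 51 efficiency calls, 5 were shared with the authors' values, 15 with no batch term and all 11 of the replicate block.

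Against 50 µM the counts were 30, 31 and 5, with 0, 0 and 0 from the authors' values, 7, 0 and 0 with no batch term, 5, 4 and 0 with the replicate block, and 47 to 128, 26 to 129 and 1 to 75 when leaving out single replicates. Against 4Ei-4 they were 0, 0 and 1, with 5, 3 and 7 from the authors' values, 0, 365 and 76 with no batch term, 0, 435 and 118 with the replicate block, and 0, 0 and 1 to 4 when leaving out single replicates.

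For the 38 calls of named genes, 638 alternative values kept the call in 243 cases, lost it in 394 and turned the sign in 1, the efficiency of Cdkl2 with total RNA as a covariate (0.19). Of 816 values of other named genes, 808 kept side and sign. Eif3k turned to -0.10 and Npc2 to -0.031 on polysomes, each both with no batch term and with the replicate block. The replicate block takes the place of the batch term, and both groups hold the same replicate numbers. Those settings therefore give the same difference and count as a single result. The causes were not tested.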
